A study of Mus musculus with 6 samples.

Results

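The molecular chaperone and heat shock genes of adult cardiomyocytes (CMs) were examined in mice without *Cpt1b*, the muscle form of the enzyme that passes long-chain fatty acids to carnitine for import into mitochondria. The members are the protein-coding genes of the expression table whose symbols belong to the HSP70 (*Hspa*), small heat shock protein (*Hspb*), HSP90, HSP110 (*Hsph1*), mitochondrial chaperonin (*Hspd1* and *Hspe1*), DNAJA, DNAJB, DNAJC, BAG (*Bag1* to *Bag6*) and cytosolic chaperonin (*Cct2* to *Cct8*) families. They are 77 of 16448 genes, with 13 HSP70, 7 small heat shock protein, 3 HSP90, 1 HSP110, 2 mitochondrial chaperonin, 4 DNAJA, 11 DNAJB, 24 DNAJC, 6 BAG and 6 chaperonin genes. RNA-seq was carried out on ventricular CMs in 3 CtrlCre samples (*αMHC-Cre* pos/+ and *Cpt1b* +/+) and 3 Cpt1bcKO samples (*αMHC-Cre* pos/+ and *Cpt1b* fl/fl), all from mice of the C57BL/6 strain that were 8 to 12 weeks old. Both groups carry the Cre transgene, which the *Myh6* promoter drives in CMs, so other heart cells of Cpt1bcKO mice keep *Cpt1b*. Controls were littermates, and the CMs were obtained by enzymatic perfusion of the heart, with the atria removed. For its comparison of gene expression the study gives as many mice in each group as there are samples here, and the labels do not tie samples to single mice.

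Chaperones hold newly made or damaged proteins in a foldable state. HSP70 proteins bind short stretches of unfolded chains and release them with ATP, DNAJ proteins deliver the clients and trigger ATP use, and nucleotide exchange factors such as the BAG and HSP110 proteins reset the cycle. HSP90 proteins finish the folding of kinases, receptors and, in muscle, myosin, the CCT chaperonin folds actin and tubulin, and small heat shock proteins keep sarcomere proteins from aggregating under load. The endoplasmic reticulum (ER) and the mitochondria have HSP70, HSP90 or chaperonin proteins of their own. The cytosolic heat shock genes are induced by the transcription factor HSF1, whereas those of the ER are induced by ATF6 and XBP1 in the unfolded protein response.

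Values are normalized counts, that is, the authors' read counts on a gene divided by 1 factor per sample and rounded. The targeted gene *Cpt1b* had normalized counts of 1861, 893 and 1443 in CtrlCre samples 1, 2 and 3 and of 211, 353 and 285 in Cpt1bcKO samples 1, 2 and 3, with a log2 difference of −2.27 (standard error 0.267, adjusted *P* = 0.00338, limma, and 0.0563 without the trend of the prior variance). Of the summed values, *mt-Rnr2* took 63.2% to 64.6% in CtrlCre samples and 61.8%, 72.6% and 80.8% in Cpt1bcKO samples 1, 2 and 3. Without mitochondrially encoded and rRNA genes the sums were 3438589 to 3551692 in CtrlCre and 3146414 to 3315777 in Cpt1bcKO samples, without overlap. The members held 1.29% to 1.70% of these sums. Summed cardiomyocyte markers (10 of 10 in the table) were 606020 to 712042 in CtrlCre and 393577 to 629871 in Cpt1bcKO samples. Summed fibroblast markers (8 of 8) were 498 to 785 and 1108 to 1338, and *Col1a1* and *Lum* rose (adjusted *P* = 0.0143 for each). Endothelial markers (8 of 8) summed to 1531 to 3255 and 3035 to 3461, and mural and smooth muscle markers (8 of 8) to 606 to 1998 and 1103 to 1592, with *Cnn1* or *Tagln* at 0 in some samples. Leukocyte markers (7 of 9) summed to 93 to 138 and 114 to 130, and red blood cell markers (2 of 5) to 3 to 20 and 1 to 18. In bulk RNA, fewer cells of a type and less RNA per cell cannot be told apart. The part of these differences in the results on chaperones was not tested.

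No member passed the test after adjustment for the 11364 genes tested, and the smallest unadjusted *P* values belonged to the ER chaperone *Hspa5* and the small heat shock protein *Hspb2*, both lower in Cpt1bcKO CMs, and to *Hspb8*, which was higher. A gene was tested where at least 3 samples reached 10, and differences are on the log2(value + 1) scale, Cpt1bcKO minus CtrlCre. Of the 77 members, 73 were tested and 0 had an adjusted *P* below 0.05, beside 1.57% of all genes tested (limma). With sex, read from *Xist* and Y-linked genes, as a covariate, 4 members had an adjusted *P* below 0.05 (*Hsp90b1*, *Hspa5*, *Hspb2* and *Hspb8*), beside 5.05% (574 of 11364) of all genes in the same fit, so the larger number is no result about the members as a group. An unadjusted *P* below 0.05, the threshold that the study used for its own gene lists, was reached by 10 members (13.7%, beside 13.9% of all genes). Among them 3 were higher in Cpt1bcKO (all genes 6.66%), namely *Hspb8*, *Hsp90aa1* and *Hspa4l*, and 7 were lower (all genes 7.22%), namely *Hspa5*, *Hsp90b1*, *Dnajc3*, *Hspb2*, *Hspb7*, *Hspa12a* and *Dnajc21*. The share of members at this threshold is therefore near that of all genes and is no result about the members as a group. In 18 members (24.7%, beside 18.7% of all genes) the values of the groups did not overlap, 8 higher and 10 lower.

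**Figure D1:**
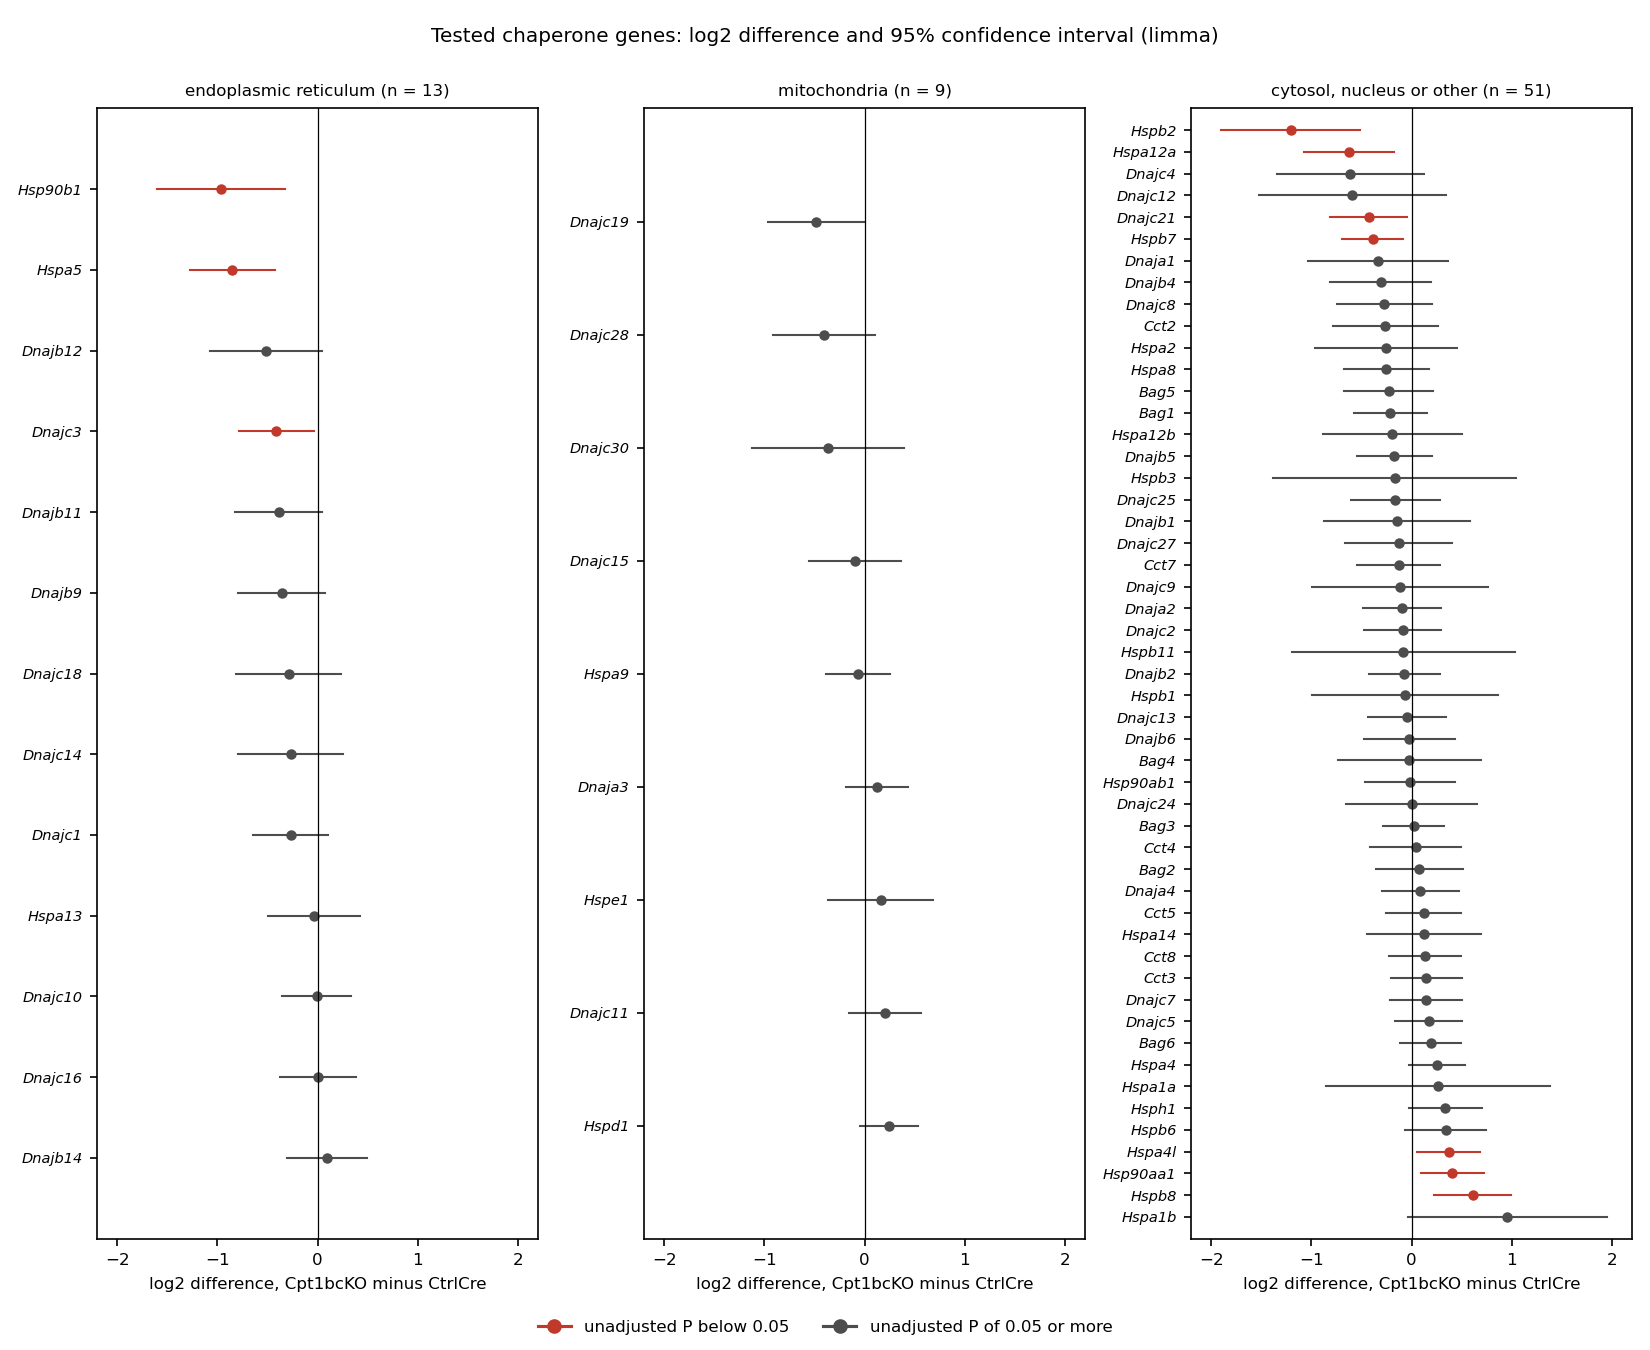
Log2 difference (Cpt1bcKO minus CtrlCre, horizontal axis) with its 95% confidence interval from limma for the 73 tested members, in panels for the endoplasmic reticulum, the mitochondria and all other places. Red marks the 10 genes with an unadjusted *P* below 0.05, of which 3 are in the endoplasmic reticulum panel and 0 in the mitochondria panel.

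The median difference of the tested members was −0.089, with 25 higher and 48 lower, beside a median of −0.0013 over all genes. This split depended on how the samples were scaled. With totals that leave out mitochondrially encoded and rRNA genes, the median of all genes moved to 0.11, the members split into 38 higher and 34 lower with a median of 0.021, and 8 higher and 4 lower members had an unadjusted *P* below 0.05 (all genes 10.9% and 4.45%). With TMM scaling the members split into 28 higher and 44 lower. Leaving out single samples moved the median of the members between −0.034 (without CtrlCre sample 1) and −0.17 (without CtrlCre sample 2), and it was −0.041 and −0.050 without Cpt1bcKO samples 2 and 3. The 4 members below the filter were *Dnajb13* (0 to 6 over all samples), *Dnajb3* (0 to 5), *Dnajc17* (1 to 8) and *Hspa1l* (1 to 6). Since a gene can pass the filter through its higher group alone, the counts over tested members are given as a description.

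Compared per kilobase of exon, the small heat shock protein gene *Hspb7* and the cytosolic HSP90 gene *Hsp90ab1* had the highest levels of all members in CtrlCre CMs. The level of *Hspb7* was 2574 normalized counts per kilobase (2372 to 2774 over 3 samples) and that of *Hsp90ab1* was 2084 (1586 to 2649), so that their ranges overlapped. Below them came the mitochondrial *Hspa9* at 1139 (1093 to 1218), the ER gene *Hspa5* at 1139 (841 to 1453), *Hspa8*, the constitutive cytosolic HSP70, at 800 (676 to 1013), *Hsp90b1* at 796 (505 to 1220), *Hspb8* at 749 (579 to 873) and *Bag1* at 576 (489 to 621). Neighbours in this order did not differ beyond their range, apart from *Hsp90ab1* and *Hspa9*. In Cpt1bcKO CMs *Hspb8* stood at 1129 (1016 to 1189), within the range of *Hspa9* (1000 to 1229), while *Hspa5* stood at 617 (574 to 653) and *Hsp90b1* at 388 (330 to 497). The stress-inducible *Hspa1a* and *Hspa1b* were far lower, at 4.38 to 16.9 and 2.85 to 11.1 per kilobase in CtrlCre samples. Exon lengths come from the GENCODE annotation, and reads that fit several genes were not counted, so genes with near-identical copies are understated. Of the 75-base windows of *Hspa8*, 33.0% also occur elsewhere in annotated genes, so its place in this order is uncertain. The share was 46.4% for *Hspb1*, 42.0% for *Dnaja4* and 31.0% for *Hspd1*. Of the members, 29 overlap a gene on the opposite strand, 18 of them one that is in the expression table, and the use of strand in counting is not given.

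**Figure D2:**
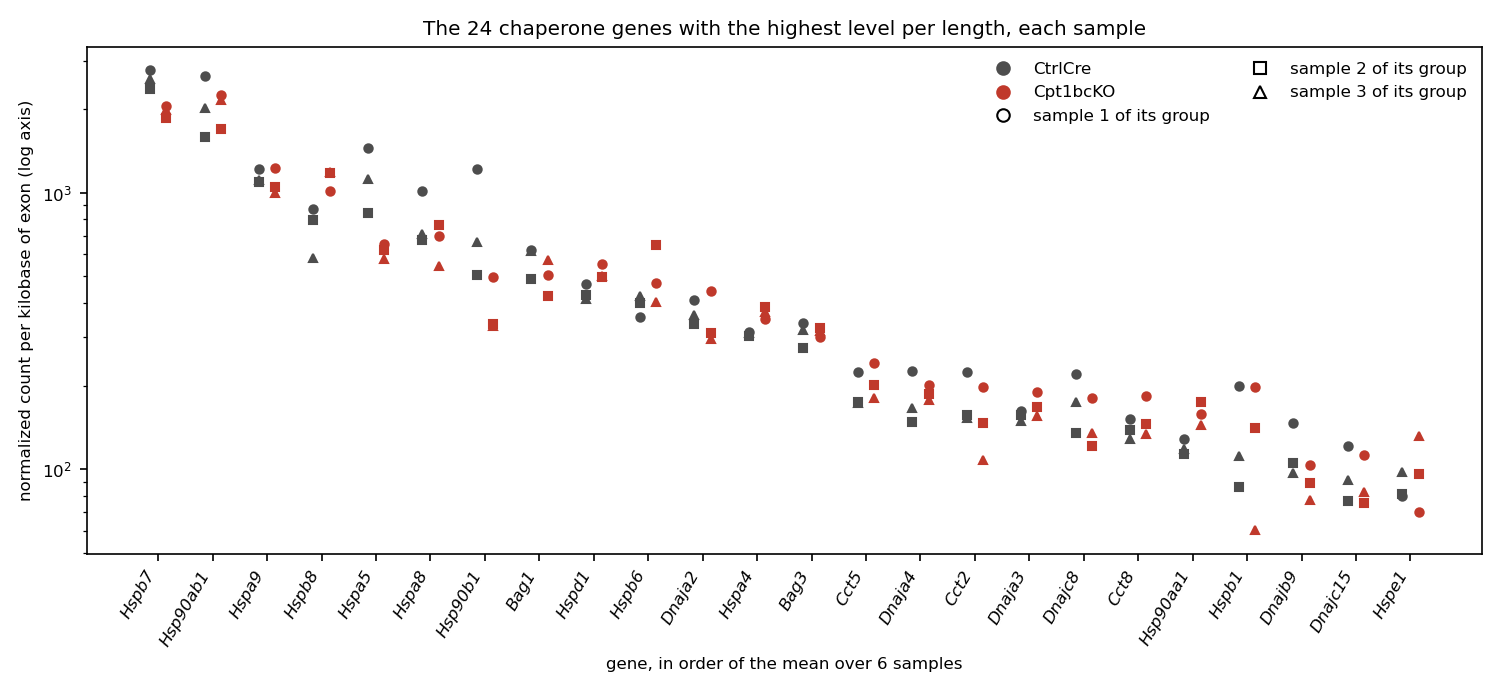
Normalized count per kilobase of exon (vertical log axis) of the 24 members with the highest mean level, 1 point per sample, CtrlCre in grey and Cpt1bcKO in red, with the shape giving the sample number. *Hspb7* and *Hsp90ab1* lead, and *Hspb7*, *Hspa5*, *Hsp90b1*, *Hspb8*, *Hspd1* and *Hspa4* are among the genes whose groups do not overlap.

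Chaperones of the ER were lower in Cpt1bcKO CMs in 11 of 13 members, of which 3 (23.1% of the 13, beside 7.22% of all genes that were lower at this threshold) had an unadjusted *P* below 0.05 and 0 an adjusted one, with a median of −0.29. The 2 others, *Dnajb14* (0.096) and *Dnajc16* (0.0051), were near 0. Members were assigned to the ER from textbook knowledge after their values had been seen, so no test was made of this group. The count was 9 of 13 (median −0.18) with totals without mitochondrially encoded and rRNA genes, 10 of 13 with TMM scaling, and 10 to 12 when single samples were left out. The main members are the BiP gene *Hspa5* (ENSMUSG00000026864, plus strand of chromosome 2 from 34771970 to 34777547, mm10), the GRP94 gene *Hsp90b1* (ENSMUSG00000020048, minus strand of chromosome 10 from 86690840 to 86705509) and *Dnajc3* (ENSMUSG00000022136, plus strand of chromosome 14 from 118937932 to 118981702), whose protein is the DNAJ partner P58IPK of BiP. Their upstream sequences are shown because all 3 hold the ER stress response element (ERSE, letters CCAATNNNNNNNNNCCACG on either strand), through which ATF6 acts. Each is the 250 bases before the RefSeq start (GRCm38.p6), 5′ to 3′ on the strand of the gene, with the element in capitals.
*Hspa5*, chr2:34771840-34772089, plus strand: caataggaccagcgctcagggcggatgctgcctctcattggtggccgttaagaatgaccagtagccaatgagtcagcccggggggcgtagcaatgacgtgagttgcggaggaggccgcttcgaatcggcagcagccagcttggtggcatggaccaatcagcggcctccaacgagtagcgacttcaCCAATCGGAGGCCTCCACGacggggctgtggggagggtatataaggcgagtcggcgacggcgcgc
*Hsp90b1*, chr10:86705445-86705694, minus strand: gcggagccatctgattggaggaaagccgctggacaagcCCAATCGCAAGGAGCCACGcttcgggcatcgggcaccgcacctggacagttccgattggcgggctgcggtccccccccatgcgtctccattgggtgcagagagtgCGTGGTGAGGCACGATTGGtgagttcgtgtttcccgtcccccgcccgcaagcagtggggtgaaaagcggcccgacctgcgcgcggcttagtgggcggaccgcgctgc
*Dnajc3*, chr14:118937682-118937931, plus strand: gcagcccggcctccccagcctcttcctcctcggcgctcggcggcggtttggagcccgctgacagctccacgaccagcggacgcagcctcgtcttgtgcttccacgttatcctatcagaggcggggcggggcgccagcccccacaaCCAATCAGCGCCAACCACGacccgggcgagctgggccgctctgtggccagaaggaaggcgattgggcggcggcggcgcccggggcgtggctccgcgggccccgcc

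The element lies 65 to 47 bases before the RefSeq start of *Hspa5* and 105 to 87 bases before that of *Dnajc3*. *Hsp90b1* has a forward copy 212 to 194 bases and a reverse copy 107 to 89 bases before its start. The genes of the expression table begin inside the printed window for *Hspa5* and *Hsp90b1* and directly after it for *Dnajc3*. The element of *Hspa5* (34772025 to 34772043) thus lies inside the gene as the expression table places it (from 34771970). The copies of *Hsp90b1* lie before the start of that gene in the expression table.

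*Hspa5* encodes the HSP70 of the ER and is a standard readout of ER stress. It had 6146, 3558 and 4748 normalized counts in CtrlCre samples 1, 2 and 3 and 2763, 2632 and 2426 in Cpt1bcKO samples 1, 2 and 3. The groups did not overlap, and the control samples spread more widely than the Cpt1bcKO samples. The log2 difference was −0.85 (95% confidence interval −1.28 to −0.43, unadjusted *P* = 0.00115, adjusted *P* = 0.0612, limma), which corresponds to 0.554 times the control level. The adjusted *P* ranged from 0.00614 to 0.257 over the alternatives. It passed without CtrlCre sample 2 (0.0414), without Cpt1bcKO sample 1 (0.0447) and without a filter on low values (0.0483). It also passed with sex as a covariate (0.00614) and with a block for the sample number (0.00696). Sample 1 alone was read as female in each group, so the fits with sex and with the block are not independent of each other.

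*Hsp90b1*, the HSP90 of the ER that folds integrins and Toll-like receptors, had 4920, 2036 and 2677 normalized counts in CtrlCre and 2003, 1356 and 1332 in Cpt1bcKO samples. CtrlCre sample 1 was far above the others, and the lowest control was only just above the highest Cpt1bcKO sample. The log2 difference was −0.96 (−1.61 to −0.32, unadjusted *P* = 0.00736, adjusted *P* = 0.162, limma), and it was −0.60 without CtrlCre sample 1. With sex as a covariate the adjusted *P* was 0.00325, in a range of 0.00325 to 0.508 over the alternatives. *Dnajc3* had 183, 198 and 196 in CtrlCre and 166, 138 and 131 in Cpt1bcKO samples, without overlap (log2 difference −0.41, −0.78 to −0.040, unadjusted *P* = 0.0331, adjusted *P* = 0.30).

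Other DNAJ partners of BiP were lower without passing either threshold in the fit without covariates. *Dnajb11* (ERdj3), which brings secreted proteins to BiP, had 165, 118 and 127 in CtrlCre and 93, 104 and 114 in Cpt1bcKO samples, without overlap (log2 difference −0.39, unadjusted *P* = 0.0763). *Dnajb9* (ERdj4), a target of XBP1, had 375, 269 and 248 against 264, 228 and 198, with overlap (−0.36, unadjusted *P* = 0.0987, and −0.18 without CtrlCre sample 1). With sex as a covariate the unadjusted *P* of *Dnajb9* was 0.0222 (adjusted *P* = 0.157, limma). *Dnajc1* was at 124 to 128 in CtrlCre and at 100 to 110 in Cpt1bcKO samples (−0.27, unadjusted *P* = 0.143). *Dnajc10*, the ER disulfide reductase ERdj5, and *Hspa13*, an HSP70 of the secretory pathway, had differences of −0.010 and −0.038. The means of the ER members in single samples, as log2 deviations from the control mean, were 0.19, −0.087 and −0.10 in CtrlCre and −0.20, −0.39 and −0.40 in Cpt1bcKO samples, so that the groups did not overlap in this mean but the step between the closest samples was small.

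The ER partners outside the named families had a median difference of −0.59, and 9 of 10 were lower, 6 with an unadjusted *P* below 0.05 (7.22% of all genes). These 10 were likewise grouped after their values had been seen, and no test was made of the group. They are co-chaperones, lectin chaperones and disulfide isomerases of the ER. The lectin chaperone gene *Canx* had 2943, 2115 and 2809 in CtrlCre and 1781, 1528 and 1915 in Cpt1bcKO samples, without overlap (−0.58, unadjusted *P* = 0.00515, adjusted *P* = 0.137, and 0.0351 with sex as a covariate, in a range of 0.0106 to 0.49). Calreticulin (*Calr*), the soluble counterpart, had 4949, 2215 and 3247 against 1933, 1774 and 2118, also without overlap (−0.76, unadjusted *P* = 0.0107). *Hyou1*, the HSP110-like exchange factor of BiP, differed by −0.70, and the disulfide isomerases *Pdia6*, *Pdia4* and *Pdia3* differed by −0.84, −0.68 and −0.54. *Serpinh1*, the collagen chaperone HSP47, which fibroblasts express strongly, was the exception at 0.21 (unadjusted *P* = 0.224). CtrlCre sample 1 was high in several of these genes and in immediate early genes, whose sum was 9191 there, 5162 and 6056 in the other two controls, and 4291 to 5572 in Cpt1bcKO samples. Of 19 immediate early genes tested 13 were lower, 8 of them (42.1% of the 19, beside 7.22% of all genes) with an unadjusted *P* below 0.05 and 0 with an adjusted one (median −0.25). Their part in the ER difference was not tested.

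**Figure D3:**
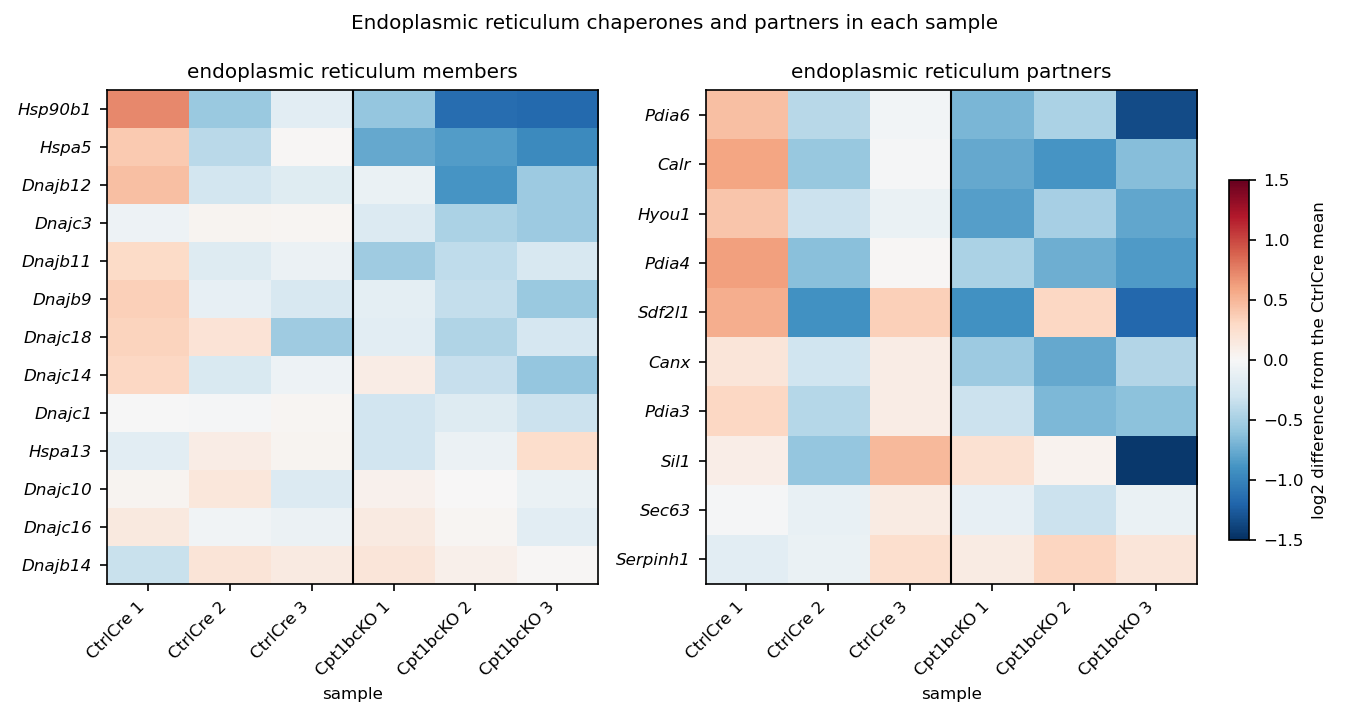
Log2 difference from the mean of the CtrlCre samples (colour scale, red higher and blue lower) for the 13 ER members (left) and 10 ER partners (right), with a column for each of the 6 samples and genes in order of their Cpt1bcKO mean. *Hspa5*, *Hsp90b1*, *Calr* and *Canx* are blue in each Cpt1bcKO sample, and CtrlCre sample 1 is red for most genes of the upper rows.

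The ERSE was found in 37 of 32851 RefSeq promoters (0.113%, 250 bases before the start), which belong to 35 genes. Among the ER members with a promoter in the RefSeq table it was in 3 of 11 genes (27.3%), among the ER partners in 3 of 8 (*Calr*, *Canx* and *Pdia6*), and among the other members in 0 of 52. The element itself is compared here between the 6 genes, read on the strand that starts with CCAAT and with its fixed letters in capitals.
*Hspa5*: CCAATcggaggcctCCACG
*Hsp90b1*, distal copy: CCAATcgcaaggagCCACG
*Hsp90b1*, proximal copy: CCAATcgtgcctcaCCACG
*Dnajc3*: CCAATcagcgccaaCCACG
*Calr*: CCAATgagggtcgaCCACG
*Canx*: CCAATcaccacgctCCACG
*Pdia6*: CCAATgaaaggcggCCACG

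Of the 35 genes with the element, 12 were tested. Among these 7 were lower, 6 of them with an unadjusted *P* below 0.05 (all genes 7.22%), and 5 were higher, 1 of them (*Acacb*) below it (all genes 6.66%). Their median difference was −0.39. The 6 lower genes are the 6 listed here, *Acacb* was higher (0.40, unadjusted *P* = 0.0267, without overlap), and the other 5 genes, *Pan2* (0.55), *Alg12* (0.30), *Creld2* (−0.36), *Syvn1* (0.041) and *Hnrnpa3* (0.046), had overlapping groups and an unadjusted *P* above 0.05. The spacer of 9 bases between the fixed letters differed between the copies. A match of letters does not show that a factor binds there.

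Neither cytosolic HSP90 gene passed adjustment. *Hsp90aa1*, the stress-inducible isoform, had 507, 445 and 467 normalized counts in CtrlCre and 625, 688 and 569 in Cpt1bcKO samples, without overlap (log2 difference 0.40, 95% confidence interval 0.089 to 0.72, unadjusted *P* = 0.0168, adjusted *P* = 0.228, limma). *Hsp90ab1*, the constitutive isoform and by value the most abundant HSP90 gene, had 7943, 4757 and 6052 against 6734, 5098 and 6476. Its groups overlapped fully, with a difference of −0.014 (unadjusted *P* = 0.948), and this sign turned with both other scalings. Of the 75-base windows of *Hsp90aa1*, 42.8% also occur elsewhere in annotated genes, so that part of its reads was not counted.

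The 3 cytosolic exchange factor genes of the HSP110 type were higher in each Cpt1bcKO sample than in any control, with small differences. *Hspa4l* (ENSMUSG00000025757, plus strand of chromosome 3 from 40745430 to 40796103) had 571, 652 and 509 in CtrlCre and 726, 755 and 748 in Cpt1bcKO samples (log2 difference 0.37, 0.055 to 0.69, unadjusted *P* = 0.0258, adjusted *P* = 0.274). *Hspa4* had 1729, 1672 and 1715 against 1934, 2126 and 2055, a tight separation of 0.26 (unadjusted *P* = 0.0668). *Hsph1*, an HSF1 target, had 488, 381 and 402 against 629, 492 and 489, where the lowest Cpt1bcKO sample was just above the highest control (0.34, unadjusted *P* = 0.0658, and 0.22 without Cpt1bcKO sample 1). In none of the 3 genes did the groups overlap, as in 18.7% of all genes in either direction (1038 of 11364 genes were higher without overlap). Of the 3 *Hspa4l* alone passed the unadjusted threshold. They were set together with earlier results of these data known.

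Among the other HSP70 genes, *Hspa8*, the constitutive HSC70, had 4359, 2907 and 3052 in CtrlCre and 3009, 3275 and 2331 in Cpt1bcKO samples, with overlap (−0.25, unadjusted *P* = 0.221, and −0.067 without CtrlCre sample 1). *Hspa12a*, a distant relative of the HSP70 family, had 123, 125 and 144 against 76, 74 and 106 and did not overlap (−0.62, −1.08 to −0.17, unadjusted *P* = 0.0114, adjusted *P* = 0.197). *Hspa2*, *Hspa14* and *Hspa12b* lay between 17 and 104 in all samples, with differences of −0.26, 0.12 and −0.19 and overlapping groups.

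The inducible HSP70 genes were low and varied between samples of a group. *Hspa1a*, the inducible HSP70, had 50, 26 and 13 in CtrlCre and 17, 37 and 48 in Cpt1bcKO samples, and *Hspa1b*, its near-identical neighbour on chromosome 17, had 31, 17 and 8 against 27, 32 and 40. Both pairs of groups overlapped (differences 0.27 and 0.96, unadjusted *P* = 0.608 and 0.0567). Leaving out single samples moved the difference of *Hspa1b* between 0.48 (without CtrlCre sample 3) and 1.40 (without CtrlCre sample 1). These values are uncertain, because 61.7% and 55.8% of their 75-base windows occur in another gene, and their RefSeq promoters are identical at 296 of 300 bases. *Dnajb1*, the DNAJ partner of inducible HSP70, had 158, 69 and 190 against 129, 105 and 113 (−0.15, unadjusted *P* = 0.665). *Hspb1* (HSP27) had 206, 89 and 115 against 205, 145 and 62 (−0.063, unadjusted *P* = 0.883), with sample 1 highest in both groups. A list of 23 HSF1 target genes, 22 of them tested and 15 of them members, had a median of 0.016, with 13 higher and 9 lower. *Hsp90aa1* and *Hspa4l* were the 2 with an unadjusted *P* below 0.05 (9.09%, beside 13.9% of all genes), and *Hsf1* itself had 52, 44 and 71 against 47, 58 and 52 (−0.065). With sex as a covariate the members *Hsph1*, *Hspd1* and *Hspa1b* (higher) and *Dnajb4* (lower) of this list passed too. Their unadjusted *P* values were 0.0105, 0.0294, 0.0456 and 0.021 (limma, all genes 9.57% higher and 11.3% lower).

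Paired heat shock element units were looked for in the same windows of 250 bases. The head-to-head pair (GAANNTTC, which reads the same on both strands) was in 12 of 63 members with a promoter (19.0%), beside 7.73% of all genes, and in 0 of the 11 ER members. The tail-to-tail pair (TTCNNGAA) was in 7 of 63 (11.1%), beside 8.11% of all genes, and in 1 of the 11 ER members (*Dnajc10*, 9.09%). *Hspa1a*, *Hspa1b*, *Hspb1*, *Hspd1* and *Hspe1* were among those with the first pair and *Hsph1* among those with the second.

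The small heat shock proteins went in different directions. *Hspb8* (ENSMUSG00000041548, minus strand of chromosome 5 from 116408491 to 116422864), which works with BAG3 to send damaged filamin and other Z-disc proteins to autophagy, had 1703, 1550 and 1128 in CtrlCre and 1981, 2303 and 2319 in Cpt1bcKO samples. The groups did not overlap, and the difference of 0.61 (95% confidence interval 0.23 to 0.99, unadjusted *P* = 0.00504, adjusted *P* = 0.137, limma) corresponds to 1.53 times the control level. With sex as a covariate the adjusted *P* was 0.0448, in a range of 0.0402 to 0.457 over the alternatives. *Bag3* itself had 863, 704 and 815 against 769, 829 and 813 (0.022, unadjusted *P* = 0.877).

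*Hspb7* (ENSMUSG00000006221, plus strand of chromosome 4 from 141420779 to 141425311), a heart-enriched small heat shock protein that binds filamin C, had 7681, 6568 and 7132 in CtrlCre and 5688, 5141 and 5488 in Cpt1bcKO samples. The lowest control was above the highest Cpt1bcKO sample (−0.39, −0.70 to −0.080, unadjusted *P* = 0.0183, adjusted *P* = 0.237). The 10 cardiomyocyte markers had a median difference of −0.44 with 10 lower. Of these, 3 (*Atp2a2*, *Pln* and *Tnni3*, beside 7.22% of all genes) had an unadjusted *P* below 0.05 and 0 an adjusted one. In 5 the groups did not overlap (50.0%, beside 18.7% of all genes in either direction and 1091 of 11364 genes that were lower). What part of the *Hspb7* value moves with these markers was not tested. *Hspb6* (HSP20) had 817, 919 and 969 against 1082, 1481 and 923, with overlap (0.34, unadjusted *P* = 0.0883, and 0.15 without Cpt1bcKO sample 2). *Hspb2*, a muscle small heat shock protein, had 63, 35 and 72 against 26, 21 and 22, without overlap (−1.21, −1.90 to −0.51, unadjusted *P* = 0.0030, adjusted *P* = 0.102), and with sex as a covariate the adjusted *P* was 0.0452, in a range of 0.0387 to 0.346. Its exons overlap those of *Cryab* on the other strand, which had 1267, 913 and 1034 against 1161, 1166 and 889 (0.0029), and 21.4% of its windows are shared, so its level is uncertain where the use of strand in counting is not given. *Hspb3* and *Hspb11* were at 5 to 19 in all samples.

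**Figure D4:**
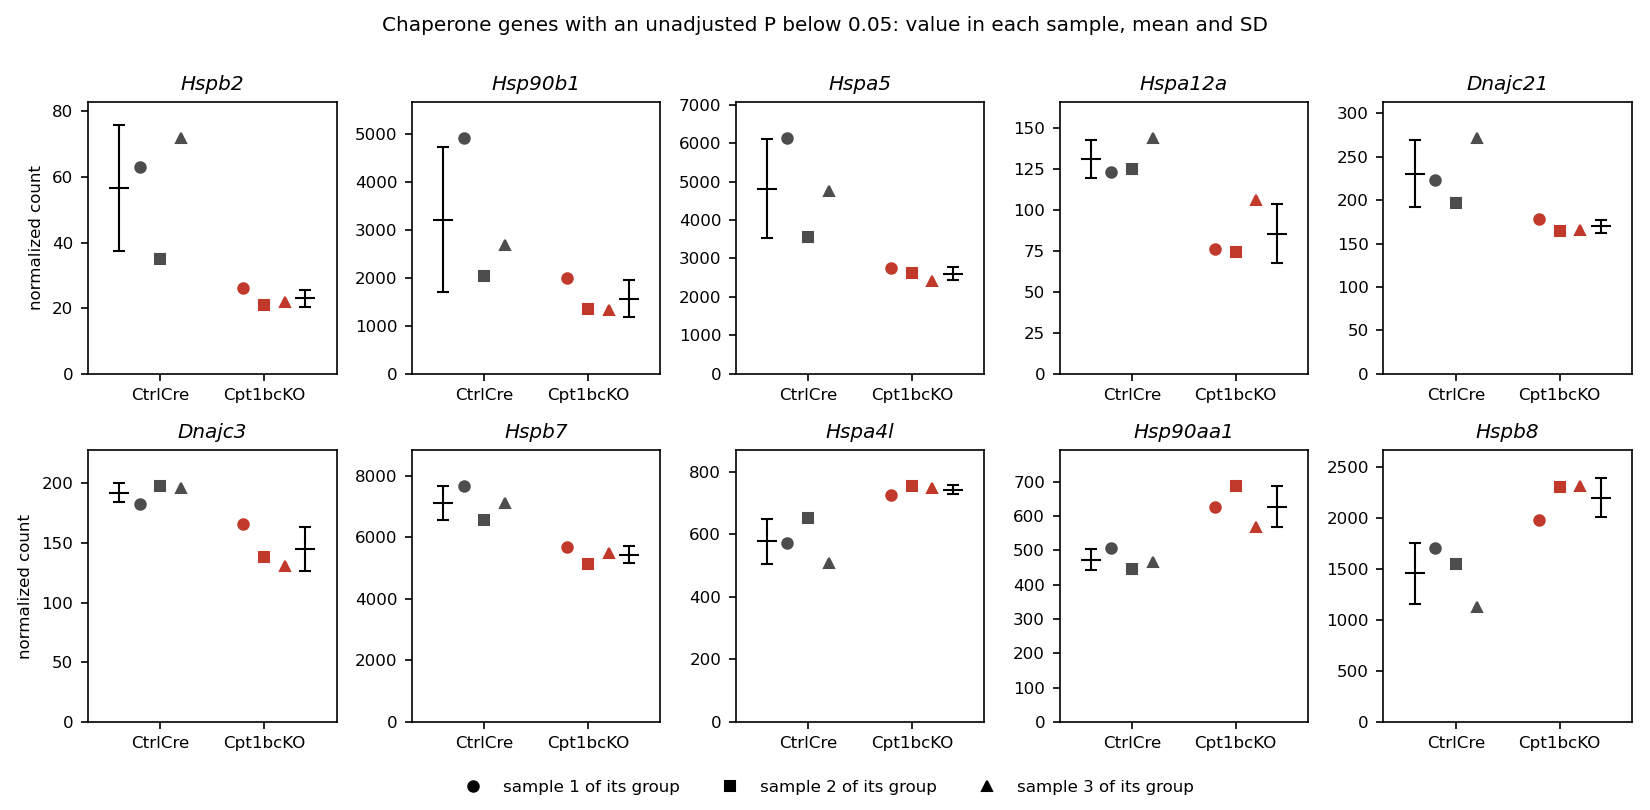
Normalized counts (vertical axes from 0) of the 10 members with an unadjusted *P* below 0.05 in each sample, with the mean and SD of each group of 3 beside the points. The genes run from the lowest to the highest log2 difference, *Hspb2* to *Hspb8*, and in each panel the groups do not overlap.

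Mitochondrial chaperones showed no adjusted or unadjusted call in 9 members in the fit without covariates (13.9% of all genes had an unadjusted one). In that fit 4 were higher and 5 lower, with a median of −0.066. With totals without mitochondrially encoded and rRNA genes 6 were higher and 3 lower, with a median of 0.046. In the fit with sex, *Hspd1* (higher) and *Dnajc28* and *Dnajc19* (lower) passed the unadjusted threshold but not the adjusted one. Of all genes, 9.57% were higher and 11.3% lower at the unadjusted threshold in that fit. *Hspd1* and *Dnajc28* passed the unadjusted threshold with a block for the sample number too. The chaperonin *Hspd1* (HSP60) had 1240, 1125 and 1092 in CtrlCre and 1459, 1310 and 1324 in Cpt1bcKO samples, without overlap (0.24, −0.047 to 0.53, unadjusted *P* = 0.0914), while its lid *Hspe1* (HSP10), which shares a bidirectional promoter with it, had 118, 120 and 144 against 103, 142 and 195, with overlap (0.16, unadjusted *P* = 0.512). *Hspa9* (mortalin), the HSP70 of the import motor, had 5251, 4710 and 4771 against 5296, 4502 and 4311 (−0.066, unadjusted *P* = 0.651). Its difference was −0.15 without Cpt1bcKO sample 1 and −0.0065 without Cpt1bcKO sample 3. *Dnajc19*, a DNAJ component of that motor whose loss in people causes cardiomyopathy, had 63, 62 and 74 against 50, 51 and 41, without overlap (−0.48, unadjusted *P* = 0.0515), and its relative *Dnajc15* had 791, 500 and 596 against 734, 492 and 538 (−0.093). Among the 7 mitochondrial partners, *Grpel2*, a nucleotide exchange factor of mortalin, had 71, 67 and 70 against 203, 104 and 160, without overlap (1.10, unadjusted *P* = 0.00104, adjusted *P* = 0.0582, and 0.0139 with sex as a covariate, in a range of 0.0123 to 0.179). Its paralogue *Grpel1* had 269, 246 and 243 against 394, 249 and 277 (0.25, unadjusted *P* = 0.213), and the protease gene *Lonp1* had 580, 489 and 468 against 597, 720 and 723 (0.41, unadjusted *P* = 0.022). *Trap1*, the mitochondrial HSP90, differed by −0.29 (unadjusted *P* = 0.0944).

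Of the 6 CCT chaperonin genes 4 were higher, with differences of −0.26 to 0.15 and 0 without overlap (18.7% of all genes). *Cct5* had 623, 484 and 482 in CtrlCre and 672, 557 and 501 in Cpt1bcKO samples, and *Cct8* had 471, 427 and 399 against 569, 451 and 414. Their differences were 0.12 and 0.13, and 0.0068 and 0.0026 without Cpt1bcKO sample 1. *Tcp1*, the first subunit of the same ring, which the symbol rule leaves out, had 1875, 1456 and 1398 against 1658, 1341 and 1320 (−0.13, unadjusted *P* = 0.452). *Cct6a*, which the table does not list as protein-coding, had 776, 576 and 663 against 771, 658 and 555. In most of these genes sample 1 was the highest of its group.

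Most DNAJ genes outside the ER lay within the spread of the replicates, and the family counts given here include the ER members. In the DNAJA family, *Dnaja2* had 1214, 998 and 1075 in CtrlCre and 1312, 923 and 880 in Cpt1bcKO samples (−0.096, unadjusted *P* = 0.593), and *Dnaja4* had 815, 534 and 596 against 723, 673 and 639 (0.087, unadjusted *P* = 0.626). In the DNAJB family 8 of 9 tested genes were lower (6 of 9 with totals without mitochondrially encoded and rRNA genes). In the fit without covariates 0 had an unadjusted *P* below 0.05 (13.9% of all genes). In the fit with sex, *Dnajb12*, *Dnajb4* and *Dnajb9*, all lower, passed the unadjusted threshold but not the adjusted one (unadjusted *P* = 0.00593, 0.0213 and 0.0222, limma, all genes 11.3% lower). The ER member *Dnajb12* had 278, 167 and 179 in CtrlCre and 189, 109 and 138 in Cpt1bcKO samples, with overlap (−0.51, unadjusted *P* = 0.0689). *Dnajb4*, a cytosolic partner of HSP70, had 1096, 625 and 652 against 761, 572 and 540 (−0.31, unadjusted *P* = 0.202), and its difference was −0.049 without CtrlCre sample 1. In the DNAJC family 19 of 23 tested genes were lower (14 of 23 with those totals), 2 with an unadjusted *P* below 0.05 (8.70%, beside 13.9% of all genes). These were *Dnajc3* and *Dnajc21*, a factor of ribosome assembly with 223, 197 and 272 in CtrlCre and 178, 165 and 166 in Cpt1bcKO samples, without overlap (−0.43, −0.81 to −0.048, unadjusted *P* = 0.031, adjusted *P* = 0.292). In the fit with sex, *Dnajc28*, *Dnajc4* and *Dnajc19*, all lower, passed too (unadjusted *P* = 0.0327, 0.0344 and 0.0457, limma). *Dnajc13*, which acts on endosomes, had 495, 650 and 566 against 481, 504 and 683 (−0.046, unadjusted *P* = 0.801). *Dnajc5*, the cysteine string protein of secretory vesicles, had 274, 257 and 231 against 304, 276 and 278, which is higher in each sample by a small step (0.17, unadjusted *P* = 0.276).

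Of the 6 BAG genes 3 were higher and 3 lower, with a range of −0.23 to 0.19 and 0 with an unadjusted *P* below 0.05 (13.9% of all genes). *Bag1*, the exchange factor with the highest level per length in this family, had 838, 659 and 833 in CtrlCre and 677, 569 and 767 in Cpt1bcKO samples, with overlap (−0.21, unadjusted *P* = 0.223, −0.099 without Cpt1bcKO sample 2 and −0.33 without CtrlCre sample 2). *Bag6*, which guards tail-anchored and misplaced proteins, had 440, 412 and 457 against 507, 525 and 462, where the groups just did not overlap (0.19, unadjusted *P* = 0.198).

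A list of 62 co-chaperones, exchange factors and heat shock regulators outside the named families was set beside the members. Of these 60 were tested, 24 higher and 36 lower with a median of −0.087, 0 had an adjusted *P* below 0.05 and 11 (18.3%, beside 13.9% of all genes) an unadjusted one, 3 higher and 8 lower (6.66% and 7.22% of all genes). The smallest *P* belonged to *Hspbp1*, an exchange factor that opposes HSP70, which had 45, 40 and 43 in CtrlCre and 78, 84 and 83 in Cpt1bcKO samples (log2 difference 0.92, unadjusted *P* = 0.000991, adjusted *P* = 0.0572, and 0.0243 with sex as a covariate, in a range of 0.0243 to 0.257). *Synpo2*, a Z-disc partner of BAG3 and HSPB8, had 1170, 1103 and 994 against 764, 757 and 753 (−0.52, unadjusted *P* = 0.00255, adjusted *P* = 0.0937, and 0.0184 with sex as a covariate, in a range of 0.0184 to 0.339). In both genes the groups did not overlap. The values of *Unc45b* and *Smyd1*, HSP90 partners in myosin folding, overlapped (differences −0.021 and 0.020).

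Ratios between chaperones within a sample remove the factor that scales that sample. They are not corrected for length, so a ratio is read only between groups, and the 6 ratios were chosen after the values had been seen. The exact two-sided permutation test cannot go below 0.10 with 3 against 3 samples. *Hspa5* to *Hspa8*, the ER against the cytosolic HSP70, was 1.41, 1.22 and 1.56 in CtrlCre and 0.918, 0.804 and 1.04 in Cpt1bcKO samples, without overlap. *Hsp90b1* to *Hsp90ab1* was 0.619, 0.428 and 0.442 against 0.297, 0.266 and 0.206, also without overlap, and here CtrlCre sample 1 no longer stood as far apart. *Hspb8* to *Bag3* was 1.97, 2.2 and 1.38 against 2.58, 2.78 and 2.85, and *Hspb8* to *Hspb7* was 0.222, 0.236 and 0.158 against 0.348, 0.448 and 0.423. *Hspd1* to *Hspa9* was 0.235 ± 0.00516 (SD, n = 3) in CtrlCre and 0.291 ± 0.0158 (SD, n = 3) in Cpt1bcKO samples. Each of these 5 ratios had the smallest possible exact *P* of 0.1. *Hsp90aa1* to *Hsp90ab1* overlapped (0.0638, 0.0935 and 0.0772 against 0.0928, 0.135 and 0.0879, exact permutation *P* = 0.3).

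**Figure D5:**
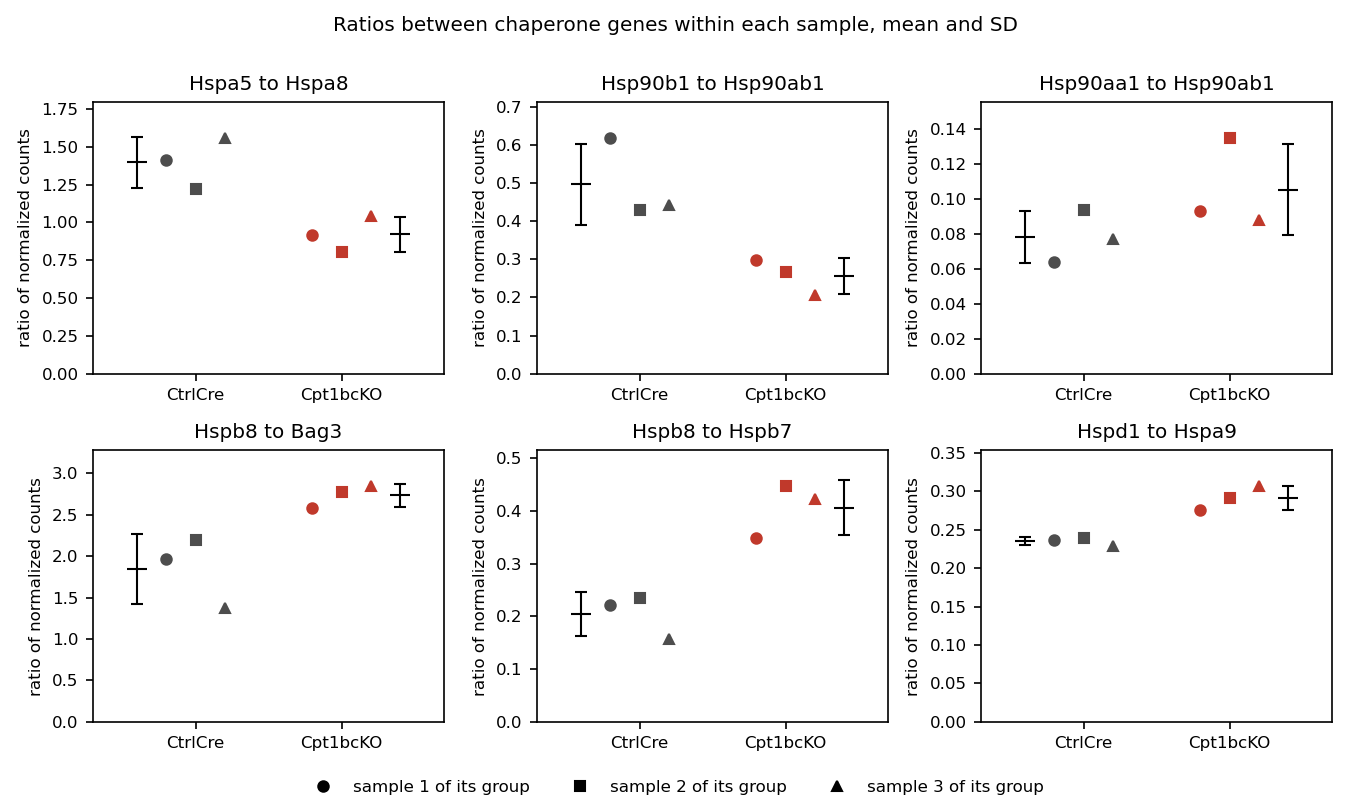
Ratio of the normalized counts of a pair of chaperone genes in each sample (vertical axes from 0), with the mean and SD of each group of 3. In 5 of the 6 panels the groups do not overlap, and *Hsp90aa1* to *Hsp90ab1* is the exception.

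Across the members, sample 1 of each group tended to be the highest of its group. CtrlCre sample 1 was the highest control in 45 of 73 tested members (61.6%), beside 39.0% of all genes tested. Cpt1bcKO sample 1 was the highest of its group in 43 (58.9%), beside 37.1% of all genes. By *Xist* and Y-linked genes, sample 1 of each group was female and the others male, so sex and whatever else sets sample 1 apart cannot be told apart here.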

How the data were processed

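RNA-seq of cardiomyocytes in 3 CtrlCre and 3 Cpt1bcKO samples was used (SMARTer Stranded Total RNA kit). According to the paper's methods and the submitters' processing notes, reads were trimmed with Trimmomatic (0.36), aligned to mm10 with STAR (2.5.4b) and counted on exons with featureCounts (1.6.0), and reads on several genes or regions were excluded. The use of strand in counting and the annotation release are not given in the sources used here. The deposited values are a normalized score per gene and sample, which the authors made by dividing counts by a DESeq2 (1.14.1) size factor and rounding to whole numbers, so the raw depth is unknown. The deposited group means, fold changes and *P* values of the authors were not used.

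The members and gene lists were chosen with earlier results of these data known, and the assignment to compartments, the ratios and 3 of the alternatives (members with few shared windows, and other scalings and left-out samples for the ER count) were chosen after seeing the data. limma (3.58.1 in R 4.3.3; lmFit, eBayes with trend) was fitted without covariates to log2(value + 1) of genes with at least 10 in at least 3 samples, two-sided, with Benjamini–Hochberg adjustment over all genes tested. The steps were tested on simulated data. Named were the members with an unadjusted *P* below 0.05 (up to 12 in each direction), the 2 most abundant members of each family, a fixed set of textbook members, the 5 partners with the smallest *P*, and *Hsf1*, *Cryab* and *Tcp1*. Other genes were named after their values had been seen. One of the partners named by this rule is not reported here. Shared windows are stretches of 75 bases of a member's exons that also occur in other annotated genes (GENCODE vM21). Promoters and starts come from RefSeq (GRCm38.p6), which held 63 members, and motifs were searched on both strands. *P* values measure the spread between these samples only. Alternatives were pseudocounts of 0.5 and 5, other filters, other scalings, no trend, a block for the sample number, sex as a covariate and leaving out each sample. Python (3.11.15), numpy (2.4.6), pandas (2.3.3), scipy (1.17.1) and matplotlib (3.10.9) were used.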

Additional observations from a re-analysis of the deposited data

How the results depend on the processing

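The deposited values are rounded and of unknown depth, so small differences of low genes are imprecise. With 3 samples a group, single samples decided several calls. The number of members with an adjusted *P* below 0.05 (0 with limma as reported, 10 at an unadjusted *P* below 0.05) was 1 without a filter (all genes 1.29%) and 4 with sex as a covariate (all genes 5.05%), and 0 to 1 when single samples were left out (1, *Hspa5*, without CtrlCre sample 2 or without Cpt1bcKO sample 1). Partners with an adjusted *P* below 0.05 numbered 1 without a filter (all genes 1.29%), 2 with totals without mitochondrially encoded and rRNA genes (1.57%), 6 with sex as a covariate (5.05%), and 0 to 1 when samples were left out (1, *Grpel2*, without Cpt1bcKO sample 2). Members higher with an unadjusted *P* below 0.05 (3 of 73 as reported) numbered 8 of 72 with those totals (all genes 10.9%). They numbered 1 of 73 without the trend (6.91%) and 7 of 73 with sex as a covariate (9.57%). When samples were left out they numbered 1 to 5 (1 of 72 without Cpt1bcKO sample 2, all genes 3.94%, and 5 of 71 without CtrlCre sample 1, 5.63%). Members lower (7 of 73 as reported) numbered 4 of 72 with those totals (all genes 4.45%) and 13 of 73 with sex as a covariate (11.3%). When samples were left out they numbered 5 to 13 (13 of 73 without Cpt1bcKO sample 1, 10.9%). The shares of all genes thus moved with most of these settings too. Members without overlap numbered 18 as reported, 11 of the 40 with under 1% shared windows (27.5%), and 20 to 31 when samples were left out (27.8% to 42.5%, beside 24.9% to 37.5% of all genes), where fewer samples are compared. The difference of *Cpt1b* was −2.27 without the trend, with an adjusted *P* of 0.0563. The causes of these differences were not tested.

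Same-numbered samples of both groups correlated in their deviations from the group means with r = 0.376, 0.255 and 0.0684 over genes, which are not independent replicates, and Cpt1bcKO sample 3 correlated better with CtrlCre sample 2 (0.147) than with its own number, so the numbers were not taken to pair the samples. With a block for the sample number, 5.31% of all genes and 4 members had an adjusted *P* below 0.05 (*Hsp90b1* 0.00334, *Hspa5* 0.00696, *Hspb2* 0.0387, *Hspb8* 0.0402) and 7 partners, *Canx* (0.0106), *Grpel2* (0.0123), *Hspbp1* (0.0322) and *Synpo2* (0.0205) among them, and 7 members were higher and 13 lower at an unadjusted *P* below 0.05 (all genes 9.44% and 11.3%).

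Some differences, none of them past a threshold, changed sign. Over all tested members the totals without mitochondrially encoded and rRNA genes turned 25 higher and 48 lower into 38 and 34. Among the genes named by rule, those that changed sign with these totals were *Dnaja2* (0.015), *Dnajc13* (0.066), *Dnajc15* (0.019), *Hsf1* (0.045), *Hsp90ab1* (0.098), *Hspa9* (0.046) and *Hspb1* (0.048), and with TMM scaling *Hsp90ab1* (0.0032). Among the same genes, sign changes on leaving out single samples gave ranges of −0.062 to 0.085 for *Bag3*, −0.11 to 0.13 for *Cryab*, −0.28 to 0.011 for *Dnaja2*, −0.041 to 0.26 for *Dnaja4*, −0.58 to 0.14 for *Dnajb1*, −0.20 to 0.053 for *Dnajc13*, −0.26 to 0.085 for *Dnajc15*, −0.22 to 0.12 for *Hsf1*, −0.19 to 0.18 for *Hsp90ab1*, −0.20 to 0.73 for *Hspa1a*, −0.43 to 0.42 for *Hspb1*, −0.068 to 0.39 for *Hspe1* and −0.23 to 0.0051 for *Tcp1*.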
